A study of Mus musculus with 4 samples.

Results

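Gain of 17q, the long arm of a human chromosome, is the most common segmental gain in high-risk neuroblastoma, and the 8 genes described here, Birc5, Nme1, Nme2, Ppm1d, Trim37, Phb, Brip1 and Tbx2, are mouse orthologues of genes from that arm. Members were taken by name, and a gene was measured where a probe set is annotated to it and to no other gene. This held for 6 of the 8 genes, out of 22180 genes measured in the same way. Nme2 has 3 probe sets in the annotation and Phb has 1, and all of these are shared with another gene, so neither has a value here. No expression value was used to choose the genes, although they were proposed with other results of these data known.

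Total RNA of 4 primary mouse tumours was hybridised to Affymetrix arrays, 1 array for each tumour. All 4 animals carry mutant Alk, the TH-MYCN transgene and the Stat6-/- genotype on a C57BL/6 and 129Sv/J background, so the tumours form 1 group, and there are no conditions to test against each other. TH-MYCN expresses MYCN under a tyrosine hydroxylase promoter, hence in cells of the sympathetic lineage, and Stat6, the transcription factor through which IL-4 and IL-13 act on macrophages, is missing in every tumour and in the rest of the host. The labels do not say which Alk mutation was used, the age or sex of the animals, or whether each tumour came from a different animal. Values are the authors' RMA values, read as log2 units, and 1 unit is a 2-fold difference. The tissue label names a neck muscle, but 0 of 8 measured skeletal muscle markers lay above background, while 9 of 9 measured sympathoadrenal markers did.

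The 17q genes are studied as a group because a gained arm adds a copy of all of them at the same time. They act in different parts of the cell: cell division (Birc5, Trim37), nucleotide supply (Nme1, Nme2), damping of the DNA damage response (Ppm1d), DNA repair (Brip1), mitochondrial membranes (Phb) and transcription (Tbx2). In the mouse all 8 lie on chromosome 11. DNA copy number was not measured here, so the values below are RNA levels only.

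A gene was called detected with a 4-tumour mean above a floor of 6.17, which 95% of 1394 olfactory and vomeronasal receptor genes, not expected in a tumour, did not reach. Of the measured 17q orthologues 5 of 6 were above this floor, and 40.5% of all genes were. The exception was Brip1, which lay just under it. Levels of different genes depend on their probes and are not compared with each other. A single array per tumour leaves the error of one tumour's value unknown, so each gene's spread is set against the SD of detected genes of like level. In whole-tumour RNA, fewer cells of a type and less RNA per cell cannot be told apart.

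Upstream sequence is shown for 3 members, chosen because they differ in the order of their tumours or in the motifs they hold. Each line gives the 250 bases before the RefSeq start in GRCm38.p6, 5′ to 3′ on the strand of the gene, with searched motifs in capitals. Which build the array's probes were designed on is not stated by any source used.
Nme1, chr11:93968273-93968522, minus strand: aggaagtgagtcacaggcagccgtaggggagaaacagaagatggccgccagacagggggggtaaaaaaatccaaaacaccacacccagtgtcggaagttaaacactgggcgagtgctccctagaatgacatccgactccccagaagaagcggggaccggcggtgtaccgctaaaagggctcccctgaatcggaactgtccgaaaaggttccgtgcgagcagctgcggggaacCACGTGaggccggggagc
Ppm1d, chr11:85311004-85311253, plus strand: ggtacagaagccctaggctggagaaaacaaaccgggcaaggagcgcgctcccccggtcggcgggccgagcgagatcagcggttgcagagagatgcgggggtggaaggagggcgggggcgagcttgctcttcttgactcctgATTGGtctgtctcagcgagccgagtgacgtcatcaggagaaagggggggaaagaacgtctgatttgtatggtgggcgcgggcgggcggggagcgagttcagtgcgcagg
Birc5, chr11:117848987-117849236, plus strand: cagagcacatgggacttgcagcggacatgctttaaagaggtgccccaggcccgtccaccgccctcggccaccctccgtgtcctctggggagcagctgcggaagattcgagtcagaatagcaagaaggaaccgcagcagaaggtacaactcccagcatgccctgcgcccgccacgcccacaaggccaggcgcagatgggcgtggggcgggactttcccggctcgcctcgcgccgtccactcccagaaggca
The motifs, searched on both strands, were CACGTG, the E-box bound by MYC family proteins, TTTGAA, an element of late cell cycle genes, CCAAT, the NF-Y box, and TTCCCGCC, an E2F-like element. None of the letters searched overlapped another in these windows. CACGTG stands in the Nme1 window 18 bases before the start and also in the window of its second start, 29 bases before it, and 6.02% of all 32851 windows hold it. CCAAT, read as ATTGG on the printed strand, stands 109 bases before the start of Ppm1d, and 33.8% of windows hold it. The window of Brip1 holds CCAAT 3 times, that of Trim37 1 time and that of Phb 1 time, and the Phb window also holds CACGTG, 232 bases before the start. In the Birc5 window none of the 4 motifs was matched. TTTGAA and TTCCCGCC, found in 16.0% and 1.86% of all windows, were matched in none of the windows of the 7 members that have one. These are matches of letters, and binding was not measured.

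Birc5, survivin, is both a subunit of the chromosomal passenger complex, which corrects chromosome attachment in mitosis, and a member of the inhibitor of apoptosis family. It measured 8.10, 7.94, 7.83 and 7.68 in tumours 1 to 4, a mean of 7.89 ± 0.18 (SD, n = 4, log2 units). Tumour 1 was highest and tumour 4 lowest, a range of 0.42, which was 0.25 without tumour 1 and 0.28 without tumour 4. Its SD was larger than that of 42.4% of detected genes of like level, so Birc5 varied about as much as other genes. Its partners in the passenger complex were also present: 5 of 6 listed genes were detected and 0 had a range of at least 1. Aurkb, the kinase of the complex, measured 8.67 ± 0.25, Incenp, its scaffold, 7.33 ± 0.14 and Cdca8, borealin, 7.76 ± 0.10 (SD, n = 4). Bub1, the kinase that marks centromeres for the complex, had the widest range of the list, with 8.23, 8.46, 7.84 and 7.70 in tumours 1 to 4. All 5 detected partners, like Birc5, were higher in both tumours 1 and 2 than in both tumours 3 and 4, an order that 50.7% of detected genes shared. Of the other inhibitors of apoptosis and their antagonists, 5 of 7 were detected. Xiap, the caspase inhibitor, was nearly constant at 6.79 ± 0.06, and Diablo, the mitochondrial protein that displaces such inhibitors, spanned 0.87 and was lowest in tumour 3 at 7.73.

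Nme1 encodes a nucleoside diphosphate kinase, which makes nucleoside triphosphates from ATP and was first known as a metastasis suppressor. It measured 8.17, 8.24, 7.64 and 7.91 in tumours 1 to 4, with a mean of 7.99 ± 0.27 (SD, n = 4). Tumours 1 and 2 were close to each other and tumour 3 lay lowest. The range was 0.60 in log2 units (1.52-fold) and 0.33 without tumour 3. Its SD exceeded that of 79.5% of genes of like level. Nme1 is read here from its own probe set, and another probe set, annotated to both Nme1 and Nme2, was left out; the coding sequences of the 2 genes are similar, and whether the probe set used also reads Nme2 is unknown. Other NME family genes were detected in 3 of 6 cases. These were Nme4, the mitochondrial member (7.41 ± 0.09), Nme6 (7.60 ± 0.25) and Nme7, a centrosomal member (7.04 ± 0.30, SD, n = 4). None of the 3 was lowest in tumour 3, as Nme1 was: all had their lowest value in tumour 4. Of all detected genes 36.1% were lowest in tumour 3 and 38.6% in tumour 4.

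Ppm1d encodes WIP1, a phosphatase induced by p53 that switches off p53, the checkpoint kinases and phosphorylated histone H2AX. It had the widest range of the measured members, with 8.83 and 8.90 in tumours 1 and 2 and 8.08 and 8.17 in tumours 3 and 4, and a mean of 8.49 ± 0.43 (SD, n = 4). The values form a high and a low pair of tumours, which lie 0.66 apart at their nearest. The range of 0.82 corresponds to 1.76-fold, and stayed under the 2-fold limit. Its SD exceeded that of 94.4% of genes of like level, and leaving out any 1 tumour gave ranges from 0.73 to 0.82. Of the proteins WIP1 acts on and their targets, 7 of 8 measured genes were detected and 0 had a range of at least 1. Trp53 was not measured by a probe set of its own. Chek1, the checkpoint kinase, showed a similar split, with 7.52, 7.83, 6.99 and 7.01 in tumours 1 to 4, and so did H2ax, with 10.51, 10.69, 10.00 and 10.04. Cdkn1a, the p53-induced cell cycle inhibitor p21, did not share it, with 8.86, 9.44, 8.72 and 9.09. In all, 5 of the 7 detected genes were higher in both tumours 1 and 2 than in both tumours 3 and 4, as were 50.7% of all detected genes. Mapk14, a stress kinase that WIP1 dephosphorylates, was nearly constant at 7.50 ± 0.07, and Mdm4, a p53 inhibitor, measured 8.40 ± 0.17 (SD, n = 4) with its highest value in tumour 1 and its lowest in tumour 2.

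Trim37 encodes a ubiquitin ligase that limits the assembly of centrosome material away from centrioles; human cells with 17q gain and high TRIM37 depend on the kinase PLK4. It measured 9.53, 9.58, 9.14 and 9.40 in tumours 1 to 4, a mean of 9.41 ± 0.20 (SD, n = 4). Tumours 1, 2 and 4 lay close together and tumour 3 below them. The range was 0.44, and 0.17 without tumour 3. Its SD exceeded that of 55.2% of genes of like level. In the centrosome list 7 of 9 genes were detected. Stil, needed for centriole duplication, was the widest, with 8.41, 8.07, 7.90 and 7.52 in tumours 1 to 4. Sass6, the cartwheel protein of new centrioles, had its lowest value in tumour 3 (8.19, 8.11, 7.71 and 8.06). In all, 3 of the 7 genes were lowest in tumour 3, against 36.1% of all detected genes. Plk4, named after its values were seen, measured 7.89, 8.03, 7.68 and 7.88, the order of Trim37. Plk4 and Sass6 lie on chromosome 3, whose detected genes had median deviations of -0.20 in tumour 3 and 0.19 in tumour 4. All detected genes had -0.09 and -0.08 there. A link of either gene to Trim37 was not tested. Pcnt, pericentrin, was nearly constant at 6.38 ± 0.07 (SD, n = 4).

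Brip1 encodes the helicase FANCJ, which binds BRCA1 and works in repair of DNA crosslinks. It measured 6.21, 6.22, 6.07 and 5.91 in tumours 1 to 4, with a mean of 6.10 ± 0.15 (SD, n = 4). Tumours 1 and 2 lay above the floor and tumours 3 and 4 below it, all within 0.31 of each other (0.16 without tumour 4), so its expression could not be told from background. Without tumour 4 its mean was 6.17, above the floor of 6.11 recomputed from tumours 1 to 3. Its partners were better measured: 11 of 15 Fanconi and BRCA genes were detected and 1 had a range of at least 1. That gene was Bard1, the partner of BRCA1, at 6.54, 6.93, 6.18 and 5.74 in tumours 1 to 4. Topbp1, which activates the ATR checkpoint and binds FANCJ, measured 9.03 ± 0.31, Brca2 7.44 ± 0.16 and Fancm, a DNA translocase, 7.41 ± 0.15 (SD, n = 4). Of the 11 genes, 9 were higher in both tumours 1 and 2 than in both tumours 3 and 4, an order held by 50.7% of all detected genes.

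Tbx2 encodes a T-box repressor that represses cell cycle inhibitors and, in human neuroblastoma, belongs to the core circuit of transcription factors of the adrenergic state. It measured 7.93, 8.27, 7.47 and 7.80 in tumours 1 to 4, a mean of 7.87 ± 0.33 (SD, n = 4). Tumour 2 was highest and tumour 3 lowest, with tumours 1 and 4 between them. The range of 0.80 (1.74-fold) was 0.46 without tumour 2 and 0.47 without tumour 3, and its SD exceeded that of 85.8% of genes of like level. Of the T-box genes and core factors listed with it, 4 of 11 were detected. Tbx20, another T-box factor, was the most variable of them, with 7.46, 7.30, 6.82 and 6.62 in tumours 1 to 4. The core factors of the sympathetic lineage varied far less: Gata3 measured 8.05 ± 0.04, Isl1 10.39 ± 0.08 and Hand2 9.11 ± 0.18 (SD, n = 4). None of these 3 was highest in tumour 2, where 26.9% of all detected genes were highest. Cdkn2a, which TBX2 represses, had a mean of 6.12, just below the floor, with 6.34 in tumour 4 above it. Cdkn1a, another cell cycle inhibitor, was detected at 9.03 ± 0.31 (SD, n = 4). Like Tbx2 it was highest in tumour 2 and lowest in tumour 3, as were 11.7% of all detected genes. Repression by TBX2 was not tested.

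Phb and its partner Phb2 form ring complexes in the inner mitochondrial membrane. Phb had no probe set of its own, but 6 of 7 listed partners were detected. Phb2 measured 9.99, 10.04, 9.88 and 9.61 in tumours 1 to 4, and Stoml2, a related membrane scaffold, 7.77, 7.94, 7.67 and 7.35. Opa1, the fusion GTPase of the inner membrane, had a mean of 8.31 ± 0.26 (SD, n = 4). Like the other 2 it was lowest in tumour 4, as were 38.6% of all detected genes.

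**Figure D1:**
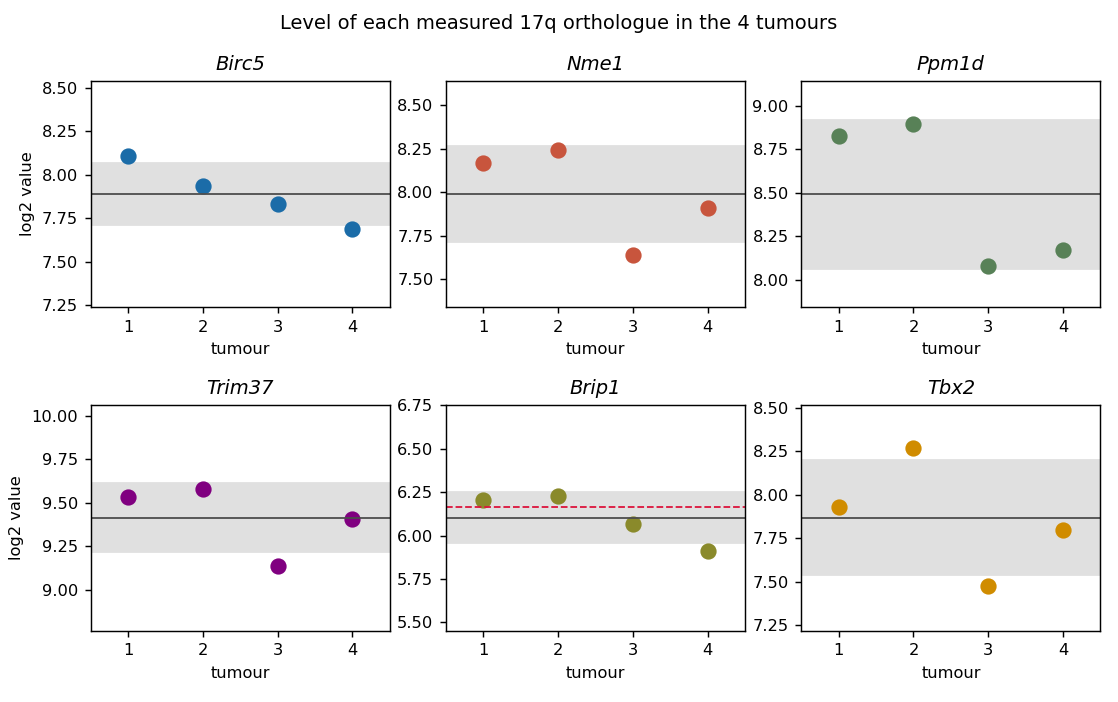
Log2 value (vertical axis) of the 6 measured 17q orthologues in tumours 1 to 4 (horizontal axis), 1 point per tumour. The line is the mean and the grey band the mean ± SD over 4 tumours, the dashed line is the background floor, and every panel spans the same height in log2 units. Nme1, Ppm1d, Trim37 and Tbx2 are lowest in tumour 3, Birc5 and Brip1 in tumour 4, and Brip1 straddles the floor of 6.17.

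No measured member reached a range of 1 log2 unit (0 of 6), and 4.26% of detected genes did. In 4 of the 5 detected members, Nme1, Ppm1d, Trim37 and Tbx2, the highest value was in tumour 2 and the lowest in tumour 3, against 11.7% of all detected genes. In the deposited values all 6 measured members were higher in both tumours 1 and 2 than in both tumours 3 and 4, as were 50.7% of detected genes. These orders were noticed in these data. Detected genes as a whole were offset in the same sense: the median gene deviated from its own mean by 0.12, 0.04, -0.09 and -0.08 in tumours 1 to 4. After a further quantile normalization the same 4 members were again highest in tumour 2 and lowest in tumour 3, against 13.7% of detected genes. Relative to genes of like level the count was 3, against 10.3%, and Trim37 was then highest in tumour 4 and lowest in tumour 3. The order of both tumours 1 and 2 above both tumours 3 and 4 was not kept by every member. Trim37 and Tbx2 lost it on both of these scales, and Birc5 lost it relative to genes of like level. The share of all detected genes with this order was not computed on these scales.

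The median deviation of the 5 detected members was 0.18, 0.25, -0.35 and -0.08 in tumours 1 to 4. Relative to genes of like level it was 0.05, 0.20, -0.26 and 0.03. Without tumour 3 the median deviations were 0.06 in tumour 1, 0.13 in tumour 2 and -0.20 in tumour 4, and without tumour 2 that of tumour 4 was 0.00. The members did not move as a block. In tumour 3 the relative deviation was -0.29 for Ppm1d, -0.28 for Tbx2, -0.26 for Nme1 and -0.17 for Trim37, but -0.01 for Brip1 and 0.06 for Birc5. In tumour 4 it was -0.22 for Ppm1d and 0.10 for Trim37.

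**Figure D2:**
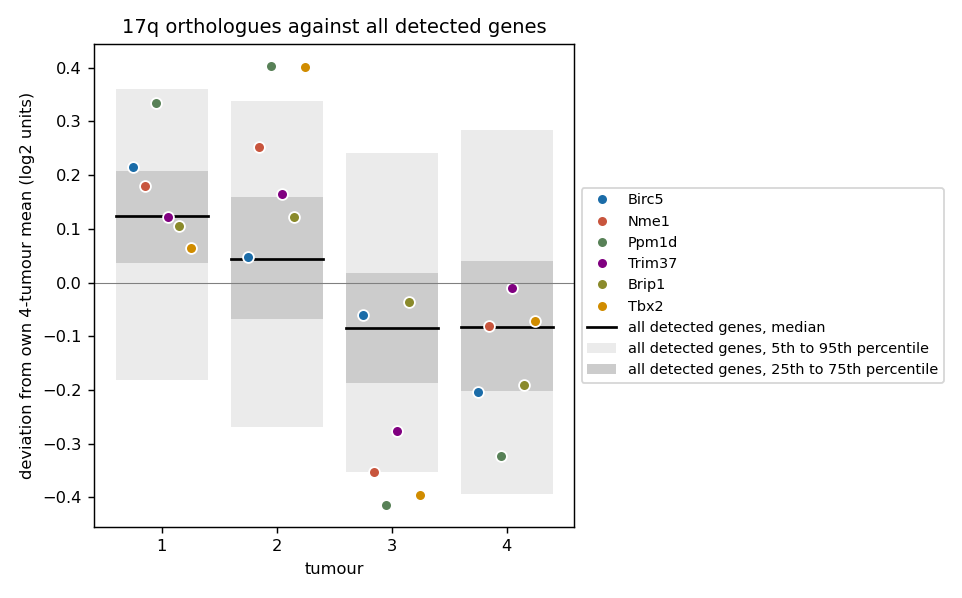
Deviation of each measured 17q orthologue from its own mean over 4 tumours (vertical axis, log2 units) in each tumour (horizontal axis), with all 8989 detected genes as grey bars for the 5th to 95th and 25th to 75th percentiles and a black line for the median. In tumour 2 Ppm1d and Tbx2 lie above the 95th percentile of 0.34, and in tumour 3 both lie below the 5th percentile of -0.35.

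The 8 genes lie on mouse chromosome 11 in the order Ppm1d, Tbx2, Brip1, Trim37, Nme2, Nme1, Phb and Birc5. The genes between them were examined for the same offsets. The 228 other detected genes between Ppm1d and Birc5 had median deviations of 0.11, 0.05, -0.06 and -0.10 in tumours 1 to 4, and genes on the other chromosomes had 0.12, 0.04, -0.09 and -0.08. The rest of chromosome 11 (473 genes) had 0.13, 0.06, -0.09 and -0.10. With chromosomes ranked by the largest offset of their median from that of all detected genes in any tumour, chromosome 11 came 12th of 20, with an offset of 0.017, and chromosome 3 came first, with 0.28. The order of highest in tumour 2 and lowest in tumour 3 was held by 24 of the 228 genes, 10.5%.

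Ppm1d, Tbx2, Brip1 and Trim37 lie near each other, with 11 other detected genes between Ppm1d and Trim37. Their median deviations were 0.15, 0.09, -0.11 and -0.13 in tumours 1 to 4. Highest in tumour 2 and lowest in tumour 3 was 1 of the 11, against 11.7% of all detected genes. Named after its values were seen, this was Med13, a subunit of the Mediator kinase module, with 9.48, 9.72, 9.11 and 9.39. Some direct neighbours had the order of their member and others did not. Appbp2, a ubiquitin ligase adaptor on one side of Ppm1d, measured 8.59, 8.71, 8.21 and 8.36 in tumours 1 to 4, the order of Ppm1d, and Bcas3, on its other side, measured 7.48, 7.24, 7.35 and 7.49. Ska2, a kinetochore protein beside Trim37, measured 9.42, 9.14, 8.75 and 8.84, and Ppm1e, a phosphatase of the family of Ppm1d on the other side of Trim37, 7.23, 6.50, 6.47 and 6.64. Spag9, a kinase scaffold beside Nme1, was nearly flat at 8.61 ± 0.07 (SD, n = 4), and Mbtd1, a chromatin reader on the other side, measured 8.40, 8.35, 8.08 and 8.06. Tk1, thymidine kinase, beside Birc5, had 7.94, 7.88, 7.76 and 7.59 in tumours 1 to 4, the order of Birc5, and so had Pgs1, a mitochondrial lipid enzyme on the other side, with 7.71, 7.56, 7.47 and 7.24. Of all detected genes 46.6% were highest in tumour 1 and 38.6% lowest in tumour 4. The share with the full order of Birc5 was not computed.

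**Figure D3:**
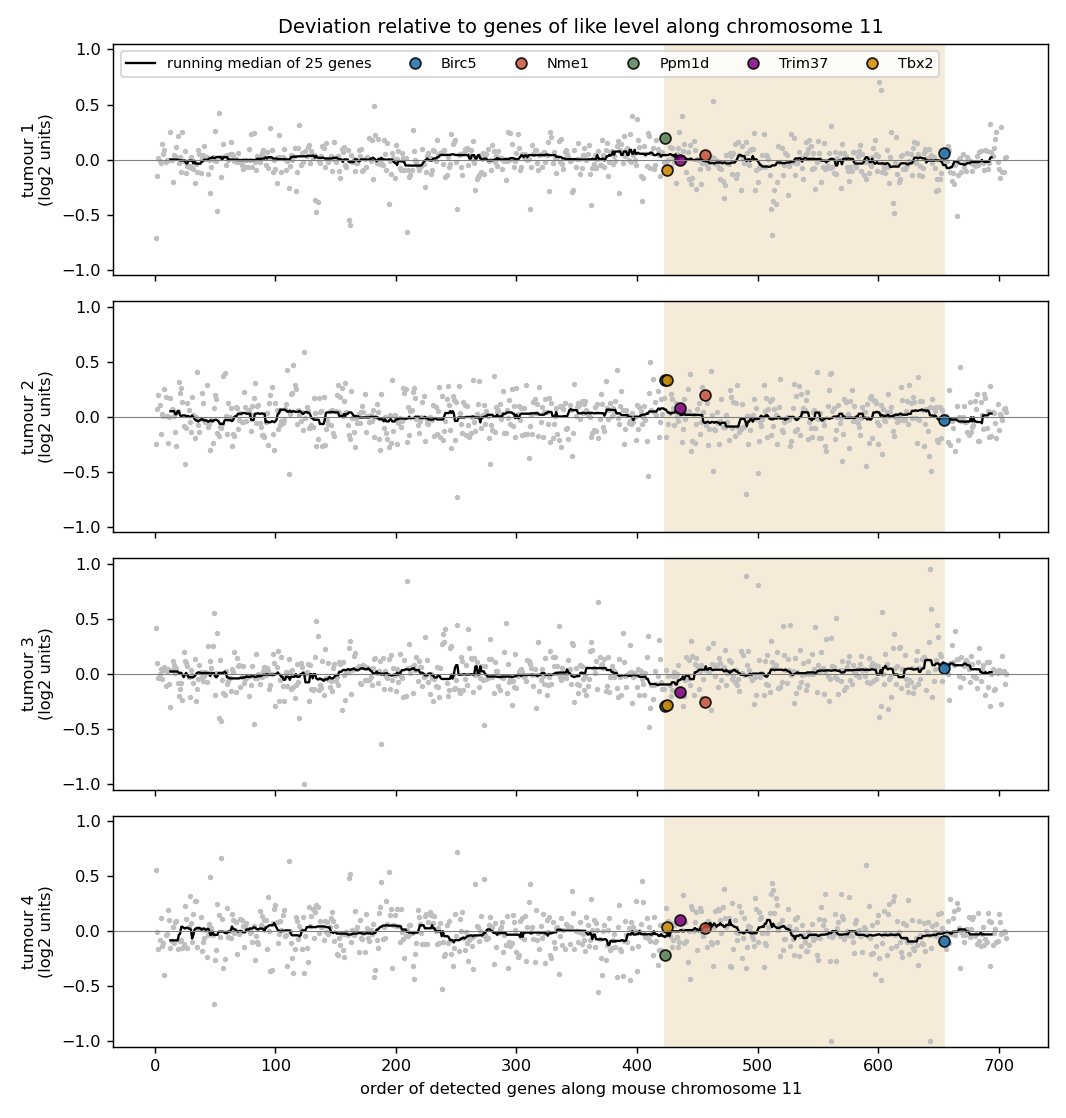
Deviation relative to genes of like level (vertical axis, log2 units, points beyond ±1 drawn at the edge) of the detected genes of mouse chromosome 11 in their order along it (horizontal axis), 1 panel per tumour. Grey points are genes, the line is the running median of 25 genes, the shaded stretch runs from Ppm1d to Birc5, and large points are the 5 detected members; Ppm1d and Tbx2 nearly coincide in tumours 2 and 3. The running median stays near 0 in each panel while Ppm1d, Tbx2, Trim37 and Nme1 lie below it in tumour 3.

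A wider list of 42 genes from human 17q was examined for the same pattern. Of these 36 were measured and 28 detected, and their median deviations were 0.15, 0.08, -0.11 and -0.12 in tumours 1 to 4, near those of all detected genes. Relative to genes of like level they were 0.03, 0.02, -0.01 and -0.03. A range of at least 1 was reached by 1 of the 28, Prkca, a protein kinase C, with 7.64, 7.00, 6.52 and 6.38. Ska2 and Eif4a3, an exon junction helicase, were the next widest, with ranges of 0.66 and 0.68, and Eif4a3 was lowest in tumour 1 at 6.04. Cbx2, a Polycomb reader, and Actg1, cytoplasmic actin, had the narrowest ranges, 0.060 and 0.18, at 7.77 ± 0.03 and 10.05 ± 0.08 (SD, n = 4). Highest in tumour 2 and lowest in tumour 3 were 5 of the 28, against 11.7% of all detected genes. Named after their values were seen, these were Sumo2, Med13, Appbp2, Srsf2 and Smurf2.

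By their median, proliferation genes were, like the members, higher in tumours 1 and 2, but about equally low in tumours 3 and 4. All 15 measured genes of that list were detected, and their median deviation was 0.17, 0.24, -0.20 and -0.20 in tumours 1 to 4. Aurka, a mitotic kinase, measured 8.47, 8.72, 7.76 and 8.06, Plk1, another, 10.02, 10.41, 9.50 and 9.41, and Cdc20, the anaphase activator, 9.18, 9.65, 8.87 and 8.75. Of the 15 genes 4 were highest in tumour 2 and lowest in tumour 3, against 11.7% of detected genes. The highest value was in tumour 2 for 9 of the 15, against 26.9% of all detected genes. Birc5, itself a mitotic gene, was highest in tumour 1, as were Foxm1, Mybl2, Pcna, Rrm2 and Tyms of the list. Tumour 1 was highest for 46.6% of all detected genes. E2f1, which drives S phase genes, had the narrowest range, 0.29.

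Cell type markers moved between the tumours as well. Macrophage markers, 7 of 10 detected, had a median deviation of -0.56 in tumour 3 and 0.13 to 0.19 in the others, and all 7 were lowest in tumour 3 (36.1% of detected genes were), where Nme1, Ppm1d, Trim37 and Tbx2 also had their lowest values. Their mean level over all 10 measured markers was 6.85 in tumour 3 and 7.36 to 7.43 in the others, and Adgre1, Fcgr3 and Mrc1 were below the floor. Fibroblast markers, 5 of 8 detected, had medians of 0.69, -0.29, 0.11 and -0.45 in tumours 1 to 4. Endothelial markers were detected in 2 of 7 cases and T cell markers in 0 of 5. The part of these cell types in the levels of the 17q orthologues was not tested. Sympathoadrenal markers, 9 of 9 detected, had medians of 0.05, -0.06, -0.05 and 0.18. Of these 9, 0 were highest in tumour 2 and lowest in tumour 3, against 11.7% of all detected genes. With so few markers this count cannot be told from that share.

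**Figure D4:**
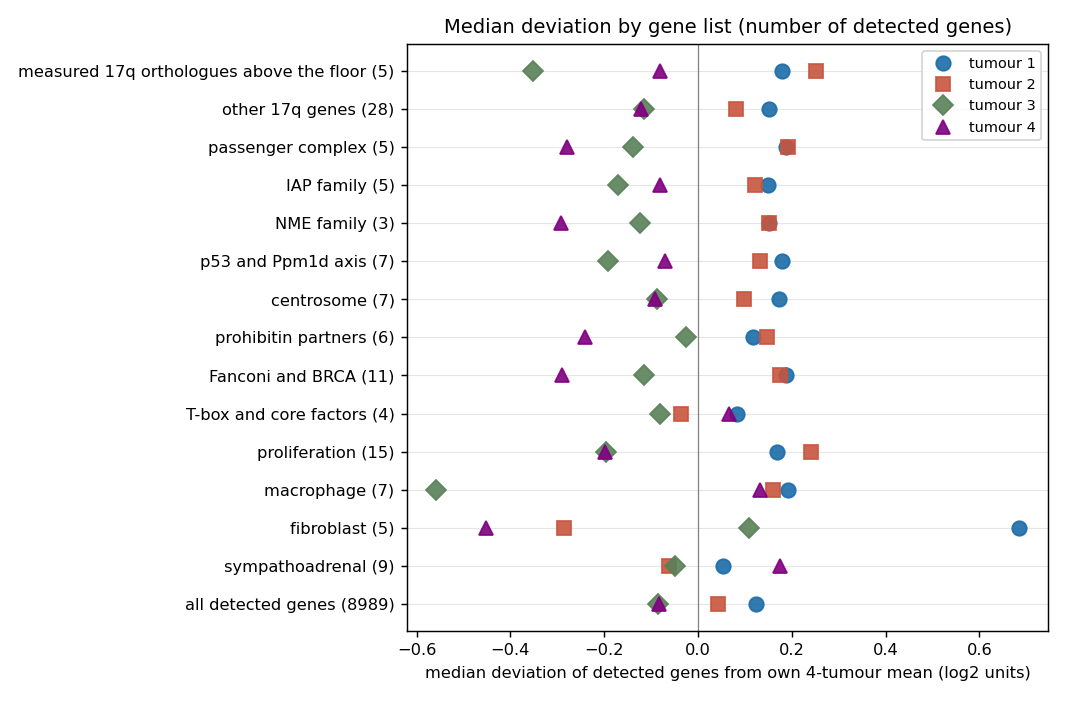
Median deviation of the detected genes of each list from their own means over 4 tumours (horizontal axis, log2 units), with 1 marker per tumour and the number of detected genes in brackets. The 5 measured 17q orthologues above the floor lie at -0.35 in tumour 3, below the other lists apart from the macrophage markers at -0.56, while the wider 17q list lies near all detected genes.

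Genes with the most similar profile were found by the root mean square difference of centred values over the 4 tumours, among all detected genes. With 4 points and 8989 genes, close matches are common, and this is a description of these arrays. The nearest to Ppm1d were Cip2a, an inhibitor of the phosphatase PP2A (a difference of 0.0080 log2 units), Dlc1 (0.0095), and Zfp942 (0.017). For Nme1 they were Cab39l (0.0058), Dynlrb1, a dynein light chain (0.016), and Hdac2, a histone deacetylase (0.017), and for Trim37 they were Peli1, a ubiquitin ligase (0.0070), Sdf2l1 (0.0085) and Parp2, a DNA repair enzyme (0.015). Tbx2 had its nearest match at 0.026, Abcc3, an efflux transporter on the same chromosome, followed by Atp6v0e (0.031) and Scnm1 (0.038). Those of Birc5 were Gfra4 (0.011), Kat2a, a histone acetyltransferase (0.011), and Vps16 (0.012). Among the members, Nme1 and Trim37 were the closest detected pair, at 0.074, with 266 detected genes nearer to Nme1 than Trim37 was.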

How the data were processed

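Each tumour was hybridised to 1 Affymetrix array. The deposited values are log2 signals per probe set (41345), made with RMA and Partek per the submitters' processing notes; no source used here gives versions or settings. The log base is not stated, and is inferred from values between 2.47 and 13.6. RMA makes the arrays more alike, so a shift of all genes cannot be read as a difference between tumours, and it compresses differences of dim genes. Some offset between the arrays remained. The median deviation of all detected genes was 0.12, 0.04, -0.09 and -0.08 in tumours 1 to 4. After a further quantile normalization it was 0.06, 0.03, -0.06 and -0.02. Array medians went the other way, with 5.15, 5.19, 5.25 and 5.29 in tumours 1 to 4, so the offset of detected genes was not one of the whole array. With arrays centred on these medians the deviation of detected genes was larger, at 0.19, 0.08, -0.12 and -0.15. No pair of arrays shared over 0.22% of its values. The number of arrays limits the precision, and the spread may include technical variation.

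Of the probe sets 23521 were annotated to 1 gene; symbols were updated through RefSeq GRCm38.p6 (23328 matched), and the probe set with the highest mean was taken per gene. Detection, spread, deviation and order were computed with pandas 2.3.3. Simulated data tested the range call, the shift of a planted block of genes and the search for similar profiles, but not detection or order. The planted ranges were larger than those of the members. Genes of like level are those in the same of 20 bins of detected genes by mean. A gene not detected is undetermined. Upstream sequences are from RefSeq, with windows for 7 of 8 members.

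Members, lists and tests were chosen with earlier results of these data known. Named genes were the members, up to 3 widest and 2 narrowest detected genes of each of 16 lists, the 3 nearest profiles of each detected member, chromosome neighbours, and the 5 widest genes between the outermost members; not all are printed. Alternatives were the normalization, the probe set rule, the floor, means in place of medians and leaving out each tumour. Values relative to genes of like level were added after seeing the data.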

Additional observations from a re-analysis of the deposited data

How the results depend on the processing

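No measured 17q orthologue reached a range of 1 log2 unit under any normalization, probe set rule or omission of 1 tumour tried, and 5 or 6 were detected; Brip1 passed without tumour 4, with the floor recomputed, or with the receptor median as floor. Their median deviation kept its sign in tumours 1, 2 and 3 under every alternative. In tumour 1 it was 0.045 relative to genes of like level, against 0.18, and 0.063 (without tumour 3) to 0.23 with 1 tumour left out. Leaving out 1 tumour gave 0.13 to 0.31 in tumour 2, -0.33 to -0.26 in tumour 3 and -0.20 to 0.00 in tumour 4, which was 0.03 relative to genes of like level and 0.00 after a further quantile normalization. Some lists depended on the floor. With a stricter floor, the 99th percentile of the receptors, 3 inhibitor of apoptosis genes (against 5), 6 Fanconi and BRCA genes (against 11), 4 macrophage (against 7), 2 fibroblast (against 5) and 0 endothelial markers (against 2) were detected. With the floor at the receptor median, detected were 6 NME genes (against 3), 10 T-box and core genes (against 4), 7 endothelial (against 2), 5 T cell (against 0) and 8 skeletal muscle markers (against 0). Without tumour 1 there was 1 endothelial marker. The cause was not tested beyond the change of floor or tumour itself. No paired analysis was possible because there is 1 group. Signal near background limits what can be said of Brip1.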

Other observations

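Between Ppm1d and Birc5 on chromosome 11, the 5 detected genes with the widest range included none of the 8 named orthologues. Snord1b, a small nucleolar RNA that guides RNA modification, measured 6.75, 6.72, 7.52 and 5.52 in tumours 1 to 4. Snora21, another such RNA, measured 10.62, 9.76, 11.16 and 9.96, and like Snord1b was highest in tumour 3, where most detected 17q orthologues were lowest. C1ql1, a secreted synaptic protein, was level in tumours 1 to 3 (8.42, 8.43 and 8.21) and lower in tumour 4 (6.86). Cacng5, a regulator of glutamate receptors, and Prkca were highest in tumour 1, at 8.24 and 7.64. Of the 228 genes in this stretch, 7 had a range of at least 1 (3.07%), against 4.26% of all detected genes.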
